A study of Mus musculus with 22 samples.

Results

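Expression of 6 genes known from the early primitive endoderm, Pdgfra, Srgn, Cited1, Creb3l2, Cryab and Pyy, was described in mouse embryos with and without Nanog and in stem cell lines of the first embryonic lineages. They are 6 of the 21881 gene symbols in the count table, and all 6 were found there by symbol. They were chosen by their counts in the embryos, which differ between the genotypes in different directions, so the genotype values below are a description, carry no test and support nothing, and no threshold set the choice. The choice gave them as primitive endoderm genes, and how far their XEN levels entered it is not known, so the tests between lines stand with that reservation.

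RNA was sequenced from 4 Nanog-null embryos (females F1 and F2, males M1 and M2), 2 heterozygous embryos (a female and a male) and 2 wild-type embryos (a female and a male), each a single blastocyst of embryonic day 3.5, and from 7 lines with 2 libraries apiece. The lines were 2 extraembryonic endoderm (XEN) lines, both male, 2 embryonic stem (ES) lines, 1 of each sex and named serum free, and 3 trophoblast stem (TS) lines, of which TS 3 was male, and all lines were wild type for Nanog. The labels give no strain, no description of the null allele and no medium for XEN and TS lines, so medium and lineage cannot be told apart. Embryo RNA was amplified before sequencing and line RNA was not, so the embryos and the lines were never set against each other.

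The primitive endoderm is the epithelium that separates from the epiblast inside the blastocyst and later forms the yolk sac endoderm. NANOG marks the epiblast, GATA6 marks the primitive endoderm, and FGF4 made by epiblast cells drives their neighbours towards endoderm, so loss of Nanog is known to disturb both lineages. The new endoderm carries the receptor PDGFRA, makes a basement membrane of laminin and type IV collagen, and takes up nutrients through receptors such as DAB2-dependent megalin and cubilin. XEN cells are lines derived from it.

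Library totals were 14.8 to 32.2 M (mega) counts in embryos and 8.20 to 23.7 M in lines, and 3 counts, the limit that a count of 0 allows, came to 0.0931 to 0.203 CPM (counts per M of the library total) in embryos. Nanog held 6 to 12 counts in the null embryos, 791 and 2038 in the heterozygous embryos, and 3238 and 3456 in the wild-type embryos. The 10 primitive endoderm markers summed to 45245 to 48295 CPM in XEN lines, 212 to 232 CPM in ES lines and 1342 to 2152 CPM in TS lines, as the line labels have it. In embryos the same markers summed to 1164 to 1962 CPM in null embryos and 1655 to 2351 CPM in Nanog-bearing (heterozygous and wild-type) embryos, ranges that overlap, with Foxa2 at 0 in both. Dab2 alone made up 902 to 1713 CPM of this in null embryos and 1258 to 1795 CPM in Nanog-bearing embryos. Gata6 held 112 to 199 CPM in null embryos and 115 to 197 CPM in Nanog-bearing embryos, so the groups overlapped. Of the 8 markers tested 7 were below 0 in null against Nanog-bearing embryos (median log2 fold change -2.54), with no call at an adjusted p under 0.05. Among these 7, Gata4 was near the floor, with 0 to 3.38 CPM in null embryos and 0.0677 to 16.0 CPM in Nanog-bearing embryos. Genes with no more than 3 counts in an embryo, where the rest had a mean of 5 CPM or more, numbered 570 for F1, 300 for F2, 133 for M1 and 809 for M2, against 40 to 68 in each Nanog-bearing embryo. The part of such gaps in the values below was not tested, and in whole embryos fewer cells of a type and less RNA per cell cannot be told apart. Epiblast markers, Nanog among them, summed to 716 to 1222.5 CPM in null embryos and 1244 to 1427 CPM in Nanog-bearing embryos. Trophectoderm markers summed to 2865 to 9337 CPM in null embryos and 6157.5 to 8797 CPM in Nanog-bearing embryos. The part of cell make-up in the values below was not tested either.

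Start regions of 5 of the 6 genes were found in RefSeq on the GRCm38.p6 build, from 250 bases before to 50 after the annotated start. One is shown for each, because 4 of these genes rose together in XEN lines while Pyy was near 0 there. Capitals mark every match, on either strand, to the TATA box word TATAA or to TGACG, the core of the site bound by CREB-type factors, the family of CREB3L2. A further 4 words were searched on both strands. The word for GATA factors was AGATAA. The word for SOX factors was AACAAT. The word for homeodomain factors was TAATGG. The word for heat shock factor was GAANNTTC, where N is any base, and none of the words overlaps another in the windows shown.
Pdgfra, chr5:75152001-75152300, plus strand: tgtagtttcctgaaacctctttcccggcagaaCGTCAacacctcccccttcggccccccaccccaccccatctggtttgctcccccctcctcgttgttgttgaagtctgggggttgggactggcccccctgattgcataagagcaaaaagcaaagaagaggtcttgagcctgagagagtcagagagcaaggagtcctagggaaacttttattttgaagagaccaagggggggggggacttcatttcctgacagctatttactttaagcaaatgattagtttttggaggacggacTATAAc
Srgn, chr10:62527396-62527695, minus strand: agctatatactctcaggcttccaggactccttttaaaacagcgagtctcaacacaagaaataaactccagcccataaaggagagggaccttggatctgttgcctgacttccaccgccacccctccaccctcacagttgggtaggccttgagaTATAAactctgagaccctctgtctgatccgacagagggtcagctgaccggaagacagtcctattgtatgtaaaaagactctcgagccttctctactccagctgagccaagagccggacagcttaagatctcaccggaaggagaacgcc
Cited1, chrX:102252132-102252431, minus strand: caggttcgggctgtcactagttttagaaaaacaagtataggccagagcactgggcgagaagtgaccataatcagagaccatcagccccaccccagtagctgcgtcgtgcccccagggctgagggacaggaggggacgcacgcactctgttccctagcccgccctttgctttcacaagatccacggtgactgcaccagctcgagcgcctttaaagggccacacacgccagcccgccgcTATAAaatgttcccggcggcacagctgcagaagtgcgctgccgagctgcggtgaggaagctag
Creb3l2, chr6:37442099-37442398, minus strand: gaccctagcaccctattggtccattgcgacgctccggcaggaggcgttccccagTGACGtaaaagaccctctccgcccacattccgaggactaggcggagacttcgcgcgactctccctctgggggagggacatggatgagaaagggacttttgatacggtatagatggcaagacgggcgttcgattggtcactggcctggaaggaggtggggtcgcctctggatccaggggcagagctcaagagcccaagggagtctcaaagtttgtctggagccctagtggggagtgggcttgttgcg
Pyy, chr11:102107783-102108082, minus strand: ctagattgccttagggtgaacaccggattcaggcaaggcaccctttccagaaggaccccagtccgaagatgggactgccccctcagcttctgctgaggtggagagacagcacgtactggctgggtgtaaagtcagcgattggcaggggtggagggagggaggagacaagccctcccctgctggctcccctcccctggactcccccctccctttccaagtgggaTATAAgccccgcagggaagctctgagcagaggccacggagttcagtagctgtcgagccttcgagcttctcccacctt
The TATA box word stood at position -27 of the Pyy window, -13 of the Cited1 window, -98 of the Srgn window and 45 of the Pdgfra window, counted from the start, and the CREB word at -196 of the Creb3l2 window and, on the other strand, at -218 of the Pdgfra window. Srgn, Cited1 and Pyy have further annotated start windows, and the window shown is the first listed. In windows not shown, the CREB word stood at -72 for Srgn and at -33 for Cited1, and the TATA box word was found for Cited1 and Pyy. The TATA box word is in 24.9% and the CREB word in 20.8% of all 32851 RefSeq windows of this length, so both are common. None of the windows shown holds the words for GATA, SOX, homeodomain or heat shock factors, which are in 11.2%, 10.7%, 7.73% and 7.86% of all windows. Each match is a run of letters and not a shown binding site.

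Pdgfra encodes the receptor tyrosine kinase for platelet-derived growth factor A and is a surface marker of the primitive endoderm. Among null embryos F1 had 75 counts (4.57 CPM), F2 859 (39.2 CPM), M1 529 (27.5 CPM) and M2 478 (23.9 CPM). Heterozygous embryos had 883 counts (37.9 CPM) in the female and 1259 (85.2 CPM) in the male, and wild-type embryos had 2650 (112 CPM) in the female and 1468 (45.5 CPM) in the male. F2 lay just above the heterozygous female, so null and heterozygous embryos overlapped, while every null embryo was below both wild-type embryos. Means were 23.8 ± 14.4 CPM in null embryos (SD, n = 4), 61.6 ± 33.5 CPM in heterozygous embryos (n = 2) and 78.8 ± 47.1 CPM in wild-type embryos (n = 2). The fitted log2 fold change of null against Nanog-bearing embryos was -1.43 (SE 0.63), and against wild type alone it was -1.63 (SE 0.75), or -0.55 without the wild-type female.

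Srgn encodes serglycin, the core protein of an intracellular proteoglycan best known from the granules of blood cells. All 4 null embryos had 0 counts. The heterozygous embryos had 151 counts (6.49 CPM) in the female and 68 (4.60 CPM) in the male, and the wild-type embryos had 41 (1.73 CPM) in the female and 45 (1.40 CPM) in the male. Srgn was thus absent from the counts of every null embryo, and it was higher in both heterozygous than in both wild-type embryos. Taking 3 counts summed over the null group as the limit, the level was at least 149-fold lower than in heterozygous embryos. Against wild-type embryos it was at least 31.7-fold lower (0 counts against 86). These limits cover counting error only and not the spread between embryos. Blood cell markers summed to 1.65 to 19.8 CPM in null embryos and 4.64 to 20.3 CPM in Nanog-bearing embryos, with 6 of the 11 measured, among them Ptprc and Tyrobp, at 0 in the Nanog-bearing embryos that held Srgn. One of these markers, Laptm5, held 0 to 0.100 CPM in null embryos and 0.0859 to 17.5 CPM in Nanog-bearing embryos, and its part in the Srgn values was not tested.

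Cited1 encodes a transcriptional co-regulator that binds CBP and p300, and lies on the X chromosome. Of the null embryos, F1 had 874 counts (53.3 CPM), F2 1826 (83.4 CPM), M1 653 (33.9 CPM) and M2 1823 (91.2 CPM). Heterozygous embryos had 347 counts (14.9 CPM) in the female and 346 (23.4 CPM) in the male, and wild-type embryos had 326 (13.8 CPM) in the female and 343 (10.6 CPM) in the male. Every null embryo was above every Nanog-bearing embryo, and no other of the 6 genes ran in this direction in all of them. The means were 65.5 ± 26.6 CPM in null embryos (n = 4), 19.2 ± 6.02 CPM in heterozygous embryos (n = 2) and 12.2 ± 2.23 CPM in wild-type embryos (n = 2). The fitted log2 fold change of null against Nanog-bearing embryos was 2.25 (SE 0.48), and 1.85 to 2.53 with any 1 embryo left out.

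Creb3l2 encodes a membrane-bound transcription factor of the endoplasmic reticulum that, once cut free, turns on genes of the secretory pathway in cells that export much matrix. The null embryos F1 and F2 had 0 counts, M1 had 179 (9.30 CPM) and M2 had 1 (0.050 CPM). Heterozygous embryos had 16 counts (0.688 CPM) in the female and 143 (9.68 CPM) in the male, and wild-type embryos had 292 (12.4 CPM) in the female and 487 (15.1 CPM) in the male. M1 stood with the heterozygous male while the other 3 null embryos were at or near 0. F1, F2 and M2 are also the null embryos with the most missing genes, and Creb3l2 is one of those genes in each. The fitted log2 fold change of null against Nanog-bearing embryos was -4.34 (SE 2.38), -8.29 without M1 and -1.82 with no sex term. Heterozygous against wild-type embryos differed by -3.66 (SE 2.76), and the fit, which holds a sex term, gave 1.59 without the wild-type female. The counts themselves did not reverse. The wild-type male left in that fit (15.1 CPM) was still above both heterozygous embryos (0.688 and 9.68 CPM).

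Cryab encodes alpha B-crystallin, a small heat shock protein that keeps damaged proteins from clumping. The null embryo F1 had 2184 counts (133 CPM), F2 464 (21.2 CPM), M1 1132 (58.8 CPM) and M2 686 (34.3 CPM). Heterozygous embryos had 764 counts (32.8 CPM) in the female and 677 (45.8 CPM) in the male, and wild-type embryos had 1092 (46.2 CPM) in the female and 1615 (50.1 CPM) in the male. The null embryos held both the highest and the lowest level of the 8, so they spread around the Nanog-bearing embryos without standing apart. Means were 61.9 ± 50.02 CPM in null embryos (n = 4) and 43.7 ± 7.53 CPM in Nanog-bearing embryos (n = 4). The fitted log2 fold change of null against Nanog-bearing embryos was 0.57 (SE 0.54), which turned to -0.24 without F1. It was -0.19 without F1 and M2, the embryos with the most missing genes. In RefSeq Cryab overlaps Hspb2, another small heat shock gene, and 2310030G06Rik, and whether counting used strand is not stated in the sources at hand, so its counts are uncertain. Hspb2 held 1.87 to 6.65 CPM in null embryos and 2.96 to 5.37 CPM in Nanog-bearing embryos.

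Pyy encodes peptide YY, a hormone of gut endocrine cells. Of the null embryos, F1 had 2 counts (0.122 CPM), M1 had 4 (0.208 CPM), and F2 and M2 had 0. Heterozygous embryos had 2 counts (0.0859 CPM) in the female and 32 (2.17 CPM) in the male, and wild-type embryos had 7130 (302 CPM) in the female and 577 (17.9 CPM) in the male. The level was thus near 0 in the null embryos and in the heterozygous female, low in the heterozygous male and high in wild type, where the female held 16.9 times the level of the male. Summed over each group, Pyy was 1783-fold lower in null than in wild-type embryos (95% exact counting interval 819 to 4859, 6 counts against 7707) and 154-fold lower in heterozygous than in wild-type embryos (110.4 to 223, 34 counts against 7707). These intervals cover counting error only, and the spread between embryos is wider. The difference from heterozygous embryos was -3.49 on the log2 scale (SE 1.58) and turned to 0.87 without the heterozygous male. Endocrine markers summed to 0.793 to 20.6 CPM in null, 14.1 to 29.7 CPM in heterozygous and 9.52 to 15.2 CPM in wild-type embryos. Of these markers, Chga held 0 to 15.4 CPM in null, 11.5 and 26.8 CPM in heterozygous and 8.5 and 14.1 CPM in wild-type embryos. Gcg and Pcsk1 were at 0 in every embryo. The part of such markers in the Pyy values was not tested.

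**Figure D1:**
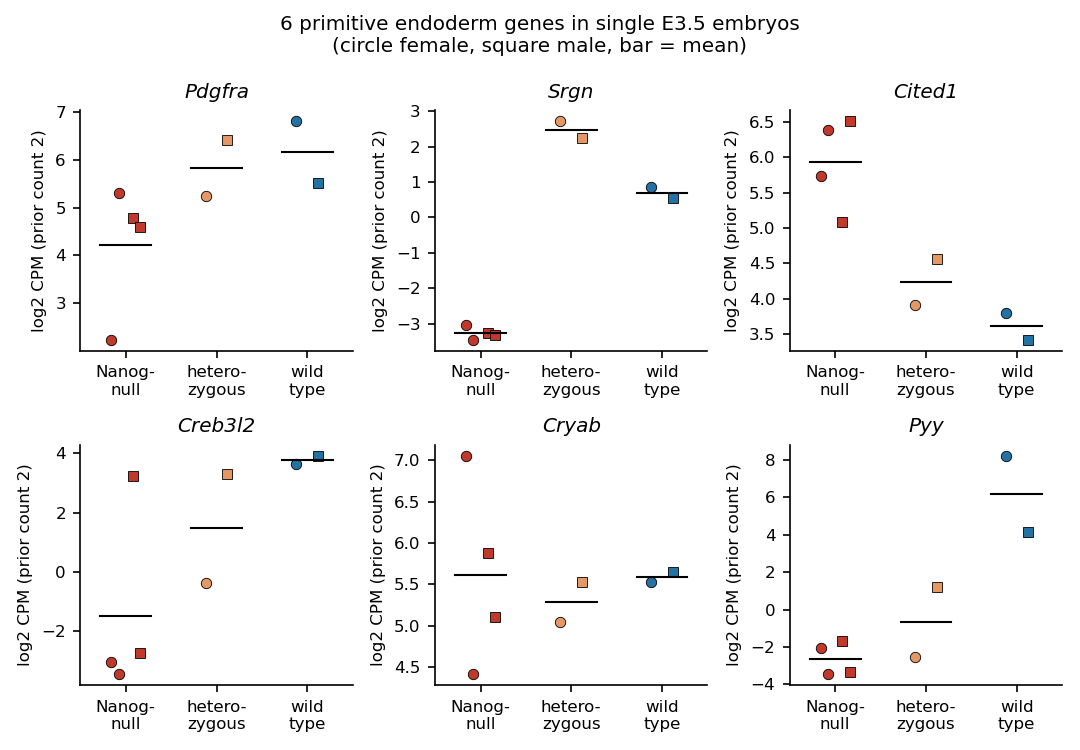
Levels of the 6 genes in single embryos, as log2 CPM with a prior count of 2 on the vertical axis, for Nanog-null, heterozygous and wild-type embryos (circles female, squares male, bars group means). Srgn sits at the level of 0 counts in the 4 null embryos, Cited1 is above every other embryo in all 4, and the null embryos straddle the rest for Cryab.

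Between null and Nanog-bearing embryos, 1 of the 6 genes was lower without overlap (Srgn; 4.21% of the 12965 genes tested were) and 1 was higher without overlap (Cited1; 1.11% were). Null and wild-type embryos did not overlap for Srgn, Pdgfra, Creb3l2 and Pyy, all lower in null embryos (11.3% of genes were), or for Cited1, higher in null embryos (3.82%). Null and heterozygous embryos did not overlap for Srgn, lower in null embryos (9.51%), or for Cited1, higher in null embryos (2.92%). Heterozygous against wild-type embryos gave Srgn and Cited1 as higher without overlap (16.1%) and Creb3l2, Cryab and Pyy as lower without overlap (18.4%). These comparisons share embryos, and the counts restate what chose the genes. The heterozygous embryos took no single place, since Srgn was highest in them, Pdgfra overlapped wild type, and Pyy was nearer to null. None of the 6 genes is among the 78 genes of the authors' deposited table of genes regulated by Nanog, which lists 71 as down and 7 as up.

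Sex played no part in choosing the genes, and each genotype has as many female as male embryos. Female and male embryos overlapped for all 6 genes (1.47% of tested genes were higher and 1.69% lower in females without overlap), and edgeR's quasi-likelihood test called none of the 6 (adjusted p = 0.999 for each) and 1 of 12965 genes (0.00771%), with 382 at an unadjusted p under 0.05 and 55 called by DESeq2. Log2 fold changes of female against male ran from -0.29 for Pyy (SE 1.63) to 0.36 for Srgn (SE 2.08), except Creb3l2 at -5.0 (SE 2.55). For Cited1, on the X chromosome, the value was -0.05 (SE 0.46). Pdgfra ran in opposite directions in the single pairs, with 37.9 CPM in the female and 85.2 CPM in the male among heterozygous embryos, and 112 CPM in the female and 45.5 CPM in the male among wild-type embryos. Whether the genotype difference itself varied with sex was tested as an interaction, which edgeR called for 0 genes (513 at an unadjusted p under 0.05). Errors in the interaction were wide, at 1.26 log2 units for Pdgfra, 3.87 for Creb3l2 (interaction value -8.68) and 4.10 for Pyy. Differences of a few fold were thus not detectable, and for Creb3l2 and Pyy much larger ones were not either. For Srgn, at 0 in all null embryos, the interaction could not be estimated (SE 854).

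In the lines, 5 of the 6 genes rose in XEN lines against both other lineages, and Pyy was near 0 in all. With edgeR's quasi-likelihood test and Benjamini-Hochberg adjustment over 14687 genes, Pdgfra, Srgn, Cited1, Creb3l2 and Cryab were higher in XEN than in ES lines, where 21.8% of the genes were called higher, and higher in XEN than in TS lines, where 16.4% were. Each of the 5 was higher in both XEN lines than in all 5 other lines, which 12.3% of the genes were. P-values here measure the spread between 2, 2 and 3 lines, each summed over 2 libraries that the labels call technical replicates and the extract protocol says come from different passages. Thus 5 of the 6 genes were highest in XEN lines, and Pyy was near 0 there. How far XEN levels entered the choice is not known, and embryos and lines were never set against each other. The lines therefore cannot decide whether the label of a primitive endoderm gene holds in the embryo.

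Pdgfra had 612 CPM in XEN 1 and 542 CPM in XEN 2, against 1.84 CPM in ES 1 and 1.11 CPM in ES 2, and 2.26 CPM in TS 1, 4.93 CPM in TS 2 and 14.9 CPM in TS 3. The XEN lines were far above the rest, and TS 3 was the highest of the TS lines, whose range was wide. The log2 fold change was 8.95 for XEN against ES (SE 1.07, adjusted p = 0.000728) and 6.53 for XEN against TS (SE 0.79, adjusted p = 0.000973). Fibroblast markers, which would come with mesenchymal cells that carry this receptor, summed to 10.1 to 10.9 CPM in XEN lines, 9.70 to 16.0 CPM in ES lines and 28.8 to 123 CPM in TS lines. Only Col3a1 and Lum were at 0 in both XEN lines. Of the 7 tested, 1 rose and 1 fell in XEN against ES lines, where 21.8% of all genes rose and 23.4% fell. Against TS lines 0 rose and 5 fell, where 16.4% of all genes rose and 20.3% fell. The part of such cells in the Pdgfra difference was not tested.

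Srgn had 376 CPM in XEN 1 and 444 CPM in XEN 2, against 0.287 CPM in ES 1 and 0.211 CPM in ES 2, and 0.520 CPM in TS 1, 0.622 CPM in TS 2 and 0.772 CPM in TS 3. In ES lines this rests on 9 counts and in TS lines on 48, so the gene was close to background outside XEN lines. Its log2 fold change was 11.00 for XEN against ES (SE 0.36, adjusted p = 1.61e-05) and 9.61 for XEN against TS (SE 0.27, adjusted p = 1.04e-05), and with any 1 line left out these stayed within 10.78 to 11.25 and 9.44 to 9.81. Blood cell markers summed to 13.3 to 19.9 CPM in XEN lines, 442 to 675 CPM in ES lines and 245 to 839 CPM in TS lines, of which Laptm5 alone made up 0.186 to 0.319 CPM in XEN lines, 421 to 657 CPM in ES lines and 166 to 763 CPM in TS lines. Of the 6 tested, 2 rose and 3 fell in XEN against ES lines, where 21.8% of all genes rose and 23.4% fell. Against TS lines 0 rose and 4 fell, where 16.4% of all genes rose and 20.3% fell. Csf1r, a receptor of macrophages, was among those that rose against ES, with 4.99 and 13.6 CPM in XEN lines, 0.230 and 0.0529 CPM in ES lines and 12.2 to 88.2 CPM in TS lines. The part of such markers in the Srgn difference was not tested.

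Cited1 had 453 CPM in XEN 1 and 279 CPM in XEN 2, against 5.45 CPM in ES 1 and 1.27 CPM in ES 2, and 38.7 CPM in TS 1, 41.4 CPM in TS 2 and 91.6 CPM in TS 3. The 3 lineages stood apart in the order XEN, TS, ES. The log2 fold change was 7.10 for XEN against ES (SE 0.88, adjusted p = 0.000823) and 2.92 for XEN against TS (SE 0.61, adjusted p = 0.00914). Both XEN lines are male, and with sex added to the fit Cited1 was still called in both comparisons.

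Creb3l2 had 75.5 CPM in XEN 1 and 137 CPM in XEN 2, against 18.6 CPM in ES 1 and 16.4 CPM in ES 2, and 26.8 CPM in TS 1, 52.3 CPM in TS 2 and 56.6 CPM in TS 3. It was read in every line, and its XEN fold changes were the smallest of the 5 genes. The log2 fold change was 2.94 for XEN against ES (SE 0.46, adjusted p = 0.00211) and 1.50 for XEN against TS (SE 0.38, adjusted p = 0.0191). The call against TS was lost without XEN 2 (1.00, adjusted p = 0.130) and with sex in the fit (1.32, adjusted p = 0.0757).

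Cryab had 119.7 CPM in XEN 1 and 228 CPM in XEN 2, against 3.44 CPM in ES 1 and 2.17 CPM in ES 2, and 15.4 CPM in TS 1, 21.9 CPM in TS 2 and 74.7 CPM in TS 3. TS 3 stood well above the other TS lines and nearer to XEN 1 than they did. The log2 fold change was 6.29 for XEN against ES (SE 0.96, adjusted p = 0.00202) and 2.45 for XEN against TS (SE 0.69, adjusted p = 0.0278). The call against TS was lost without XEN 2 (adjusted p = 0.135), TS 1 (0.0533) or TS 2 (0.0836), and with sex in the fit (0.0792). Its overlapping neighbour Hspb2 held 24.2 and 21.4 CPM in XEN lines, 1.95 and 3.23 CPM in ES lines and 1.64 to 3.40 CPM in TS lines. The lens crystallin gene Cryaa was at 0 in every line.

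Pyy had 1 count in XEN 1 and 1 in XEN 2, 0 in ES 1 and ES 2, and 2 in TS 1, 0 in TS 2 and 2 in TS 3. It was left out of the test by the filter on low counts. The gene with the widest range across embryos was thus not detectable above 3 counts in any line, the XEN lines included.

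**Figure D2:**
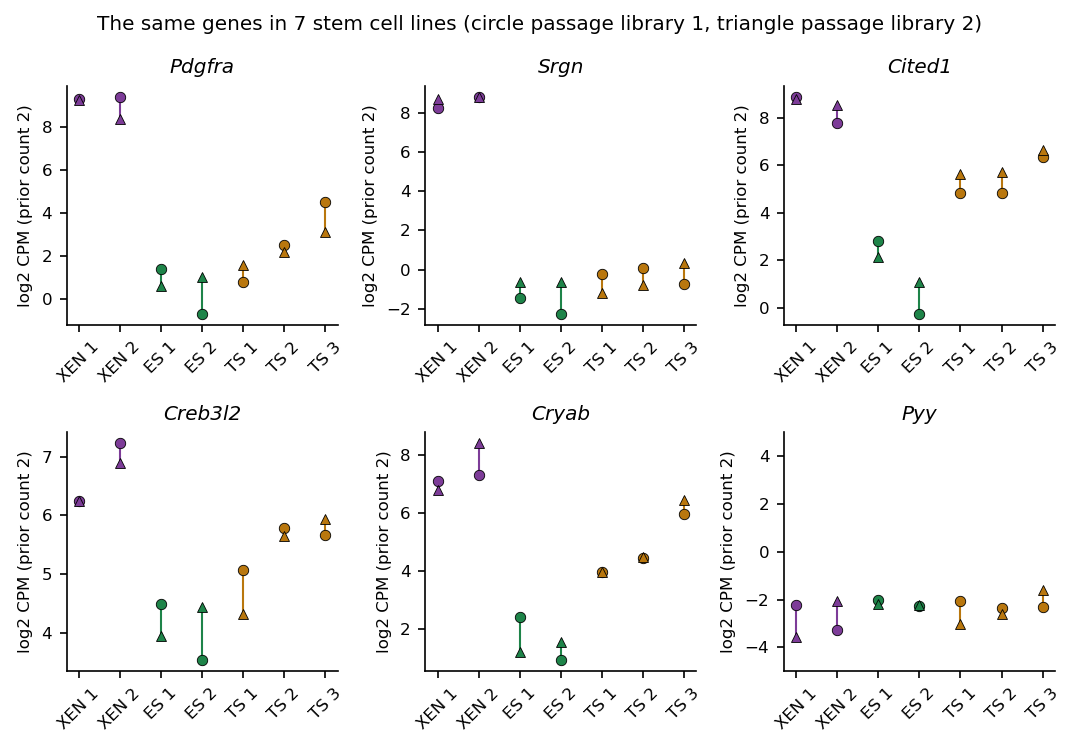
Levels of the 6 genes in the 7 lines, as log2 CPM with a prior count of 2 on the vertical axis, with each line's libraries from 2 passages joined by a bar (circle and triangle). The XEN lines are above all ES and TS lines for 5 genes, and every Pyy point stands for 0, 1 or 2 counts.

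ES lines were below TS lines for the same 5 genes without overlap (33% of genes were). Against TS, ES lines were lower in edgeR's test for Cited1 (log2 fold change -4.18, SE 0.76, adjusted p = 0.00502), Cryab (-3.84, SE 0.85, adjusted p = 0.0107), Srgn (-1.39, SE 0.36, adjusted p = 0.0190) and Creb3l2 (-1.44, SE 0.41, adjusted p = 0.0266), where 21.3% of the genes were called lower. Pdgfra did not pass (-2.42, SE 0.83, adjusted p = 0.0509), though it did with DESeq2 (0.00166), without TS 1 (0.0144) and with sex in the fit (0.0471). Without ES 1 the calls of Srgn (0.0757), Creb3l2 (0.117) and Cryab (0.0634) were lost, and without ES 2 likewise (0.153, 0.147 and 0.0809). Creb3l2 also lost its call without TS 2 (0.0638) or TS 3 (0.0545). For all 5 genes the order of the levels was XEN, then TS, then ES, with Pdgfra not shown to differ between TS and ES lines.

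**Figure D3:**
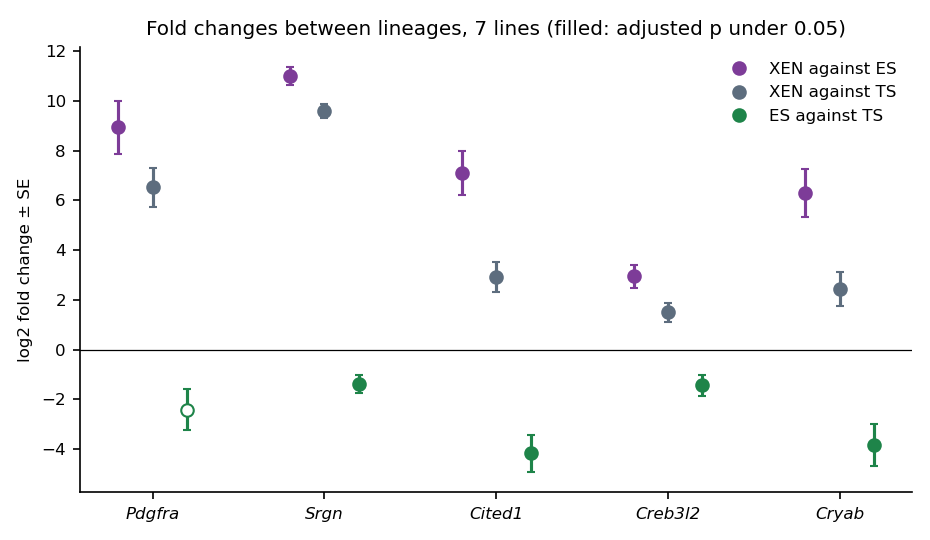
Log2 fold changes between lineages on the vertical axis, with their standard errors, for the 5 genes tested in the 7 lines (filled points have an adjusted p under 0.05). XEN against ES runs from 2.94 to 11.00, XEN against TS from 1.50 to 9.61, and ES against TS is below 0 for all 5 with Pdgfra unfilled.

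The technical replicates of a line, taken at different passages, show how far its levels varied between libraries. Whichever library of a line held more Srgn had 1.02 to 2.68 times the CPM of the other (5 lines with more than 3 counts in both). This ratio was 1.03 to 4.34 for Pdgfra and 1.06 to 3.06 for Cited1 (7 lines each). For Creb3l2 it was 1.00 to 1.89 and for Cryab 1.01 to 2.43 (7 lines each). The largest ratios for Pdgfra and Cited1 came from ES 2, at 4 and 17 counts for Pdgfra and 6 and 18 for Cited1. Within XEN 2, Pdgfra had 679.6 and 331 CPM in its libraries and Cryab 158 and 336 CPM, so they moved in opposite directions. Over all genes with at least 5 CPM the median ratio between passages was 1.34 in XEN 2 and 1.12 to 1.18 in the other lines.

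The primitive endoderm lists, like all lists here, were chosen with earlier results of these data known. In XEN against ES lines edgeR called 11 of 12 transcription factor genes higher and 1 lower, with a median log2 fold change of 7.26, where the median of all genes was -0.05, 21.8% of genes rose and 23.4% fell. Gata4, Sox17 and Gata6, which specify this lineage, rose by 7.90, 8.62 and 9.83. Of 13 basement membrane and matrix genes 12 rose, among them Lamb1 (8.73) and Col4a1 (10.36), and of 10 endocytic receptor and carrier genes 8 rose, among them Dab2 (9.92) and Cubn (10.81), which encodes cubilin. Of 13 signalling and surface genes 9 rose and 2 fell.

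In null against Nanog-bearing embryos edgeR called no gene of these 4 lists, and it called 2 of 12965 genes in all (0.0154%), both lower, with 644 at an unadjusted p under 0.05. Matrix genes were below 0 for 12 of 13 tested, with a median of -1.50, where all genes had -0.05. Lamb1, a laminin chain, had 10.5 to 41.9 CPM in null embryos and 137 to 266 CPM in Nanog-bearing embryos (log2 fold change -2.46, SE 0.43, adjusted p = 0.681), so the groups did not overlap. Sparc, a collagen-binding matrix protein, had 3.15 to 48.8 CPM in null embryos and 67.6 to 249 CPM in Nanog-bearing embryos. Transcription factor genes were below 0 for 6 of 9 tested (median -3.09), though Gata6 overlapped between the groups and Gata4 held at most 3.38 CPM in null embryos. Endocytic genes were below 0 for 4 of 7 (median -0.06) and signalling genes for 6 of 8 (median -0.57). The water channel gene Aqp8 held 2 counts over all null embryos and 2349 over the Nanog-bearing ones (adjusted p = 0.507).

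For the PDGF pathway, Pdgfra was highest in the XEN lines, where the ligand genes Pdgfa and Pdgfb were lowest. Pdgfa, the ligand of PDGFRA, had 3.26 CPM in XEN lines, 126 CPM in ES lines and 66.5 CPM in TS lines, and fell in XEN lines, with a log2 fold change of -4.93 against ES (SE 0.36, adjusted p = 0.000111) and -4.08 against TS (SE 0.34, adjusted p = 0.000201). Pdgfb fell too, at -4.59 against ES and -8.87 against TS, with 0.124 to 0.292 CPM in XEN lines, 4.82 to 8.41 CPM in ES lines and 102 to 141 CPM in TS lines, so, as for Pdgfra, all TS lines were above both ES lines. Pdgfd, a further ligand gene, had 39 and 15 counts in XEN lines, 0 in both ES lines and 7 to 21 counts in TS lines, and was called higher in XEN than in ES lines (adjusted p = 0.00596). Of the 14 genes of ligands, other receptors and adaptors, 3 rose and 5 fell in XEN against ES lines, and 0 rose and 4 fell against TS lines, where over all genes 21.8% rose and 23.4% fell against ES and 16.4% rose and 20.3% fell against TS, so the shares that rose against ES and fell against TS were near those of all genes. In embryos none was called, the list's median was 0.20, and Pdgfa had 37.4 to 70.3 CPM in null embryos and 16.2 to 39.8 CPM in Nanog-bearing embryos (log2 fold change 1.08, SE 0.39, adjusted p = 0.931).

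Around Srgn, genes that build and carry glycosaminoglycan chains rose in XEN against ES lines in 12 of 17 cases and fell in 1 (median 1.49). Over all genes 21.8% rose and 23.4% fell there. In XEN against TS lines 7 rose and 1 fell, where 16.4% of all genes rose and 20.3% fell. Chst15, which adds a sulphate to the chondroitin chains that serglycin bears, had 180.3 CPM in XEN lines, 4.38 CPM in ES lines and 1.60 CPM in TS lines (log2 fold change against ES 5.70, SE 0.48, adjusted p = 0.000187). Cd44, a receptor that binds serglycin, rose by 5.99 against ES lines. In embryos none was called and 8 of 13 tested were below 0 (median -0.81). Chst15 was at 0 in every embryo, and Cd44 held 1 count in M2, 1 in the heterozygous male and 0 in the others. Ndst2, a heparan sulphate enzyme, is listed as down in the authors' deposited table, and its log2 fold change in null against Nanog-bearing embryos was -4.55 here.

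Among the partners of Cited1, 6 of 9 listed symbols were in the table and 5 were tested, of which 2 rose and 1 fell in XEN against ES lines and 1 rose and 1 fell against TS lines. With 5 genes this is too few to set apart from the 21.8% and 23.4% of all genes that rose and fell against ES lines and the 16.4% and 20.3% against TS lines. Cited2 rose in XEN against ES lines by 3.80 and against TS lines by 2.37, and Cited4, with 2 counts in XEN lines together, fell, at -4.65 and -5.90. In embryos none was called and 4 of 5 were below 0 (median -0.61). Ep300, which encodes p300, had 3.23 to 7.69 CPM in null embryos and 14.1 to 40.4 CPM in Nanog-bearing embryos (log2 fold change -2.13, SE 0.67, adjusted p = 0.931).

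The other CREB3 genes, their proteases and secretory pathway targets rose in XEN against ES lines for 9 of 13 (median 1.78) and against TS lines for 7 of 13 (median 1.29), and none of the 13 fell in either, where 21.8% of all genes rose and 23.4% fell against ES lines and 16.4% rose and 20.3% fell against TS lines. Atf6, a related membrane-bound factor, rose by 2.15 and 1.69, Hspa5, the main chaperone of the endoplasmic reticulum, by 2.75 against ES lines, and Sec23a, a coat protein of secretory vesicles, by 1.50 against TS lines. In embryos none was called, 5 of 11 were above 0 and the median was -0.09. Creb3 had 72.2 to 94.5 CPM in null embryos and 52.1 to 69.8 CPM in Nanog-bearing embryos (log2 fold change 0.66, SE 0.29, adjusted p = 0.931), so the groups did not overlap, though the gene did not pass the test.

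Small heat shock genes and their regulators other than Cryab did not run one way. In XEN against ES lines 4 of 9 rose and 1 fell, and against TS lines 2 rose and 1 fell, where over all genes 21.8% rose and 23.4% fell against ES and 16.4% rose and 20.3% fell against TS. The largest change against ES was that of Hspb8, which fell (-7.91) to 0.363 CPM in XEN lines, against 115 CPM in ES lines. Hspb2 rose by 3.48. In embryos 8 of 10 tested were above 0, the median was 0.25 and none was called.

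Of the neuropeptide Y family and the enzymes that process it, 5 genes could be tested in lines, of which 2 rose and 2 fell in XEN against ES lines and 2 rose and 0 fell against TS lines, beside 21.8% and 23.4% of all genes that rose and fell against ES and 16.4% and 20.3% against TS. Dpp4, the peptidase that trims peptide YY, had 245 CPM in XEN lines, 2.59 CPM in ES lines and 0.226 CPM in TS lines, and rose in XEN against ES lines by 6.90 (SE 0.46, adjusted p = 8.29e-05). Npy, with 1 count in XEN lines together, fell by 6.07. In embryos 4 were tested, none was called and the median was 0.12. Npy and Ppy, the other peptides of the family, were at 0 in all 8 embryos, so Pyy was the only one of the 3 with counts there.

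**Figure D4:**
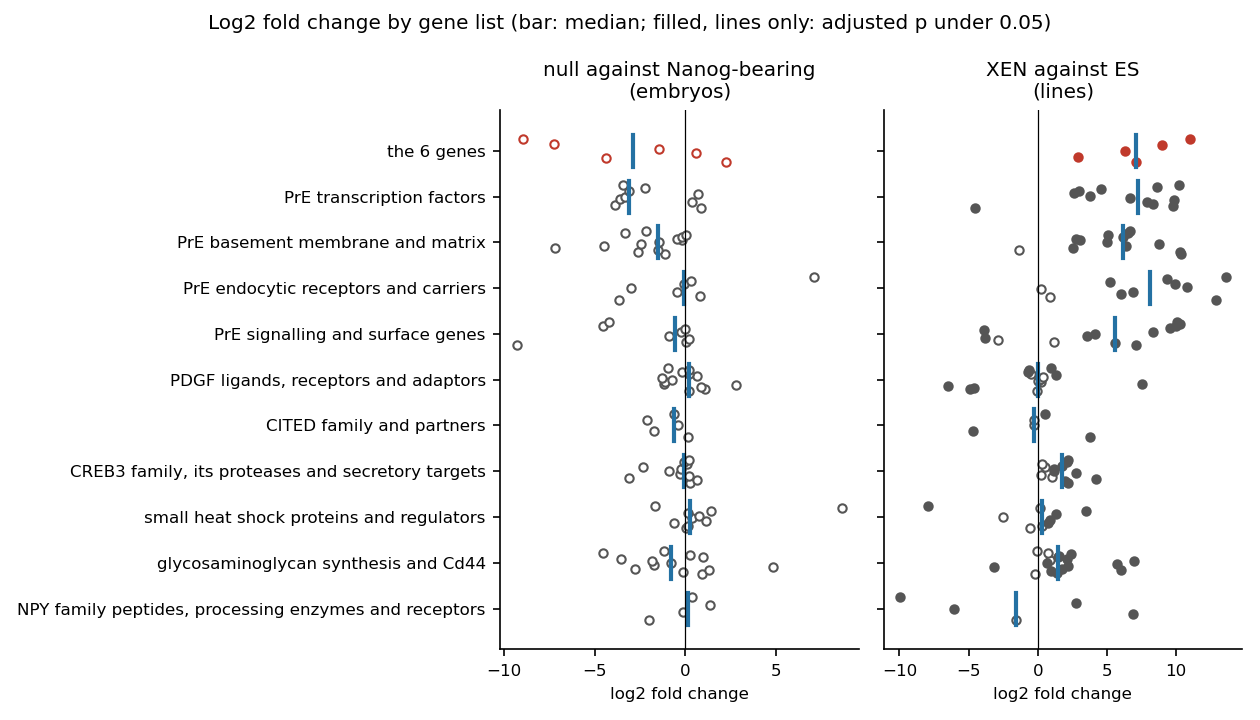
Log2 fold changes (horizontal axis) of the 6 genes and of 10 gene lists, each point a tested gene and each bar a median, in null against Nanog-bearing embryos (left) and XEN against ES lines (right, filled where the adjusted p is under 0.05). The 6 genes lie on both sides of 0 in embryos, and the 5 tested in lines are all to the right of 0.

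The genes whose profile came closest to each of the 6 were found by the mean absolute difference in log2 CPM after centring, a description over units that share libraries and amplification. Over the 8 embryos, among 8979 genes that averaged 5 CPM or more, the closest to Pdgfra were Fn1, which encodes fibronectin, at 0.25 and Egfl7 at 0.34. Cited1 was closest to Cphx at 0.30 and Rragc at 0.33, and Cryab to Fam158a at 0.21 and Cdkn2aip at 0.22. For Creb3l2 the closest were Iqcb1 at 0.55 and Hebp1 at 0.67, while Srgn had none nearer than Tbc1d24 at 0.85 and Pyy none nearer than Serpinb1a at 1.28. Over the 7 lines, among 10808 genes, the closest were Plat (0.45) for Pdgfra, Sox7 (0.50) for Srgn, Podxl (0.45) for Cited1, Tanc2 (0.21) for Creb3l2 and Amot (0.51) for Cryab. Sox7, an endoderm factor, follows Srgn in the lines only by this measure, since it was at 0 in the Nanog-bearing embryos that held Srgn.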

How the data were processed

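The authors deposited raw counts per gene symbol for 22 libraries, not normalized, of which 2722 of 21881 symbols were 0 throughout. The genome build was mm9 and the tools TopHat 1.3.1 and edgeR, per the submitters' processing notes. How reads were counted, on which annotation and whether by strand, is not stated in the sources at hand. A second table deposited by the authors gives a direction word, a unit of the kind other, for each listed gene. The 8 embryos were fitted in edgeR 4.0.16 (R 4.3.3; quasi-likelihood, TMM, filterByExpr, robust) by genotype and sex, with 12965 genes kept. The 7 lines, each summed over its 2 libraries, were fitted by lineage, with 14687 kept. P-values were adjusted by Benjamini-Hochberg at 0.05. SE is the log2 fold change over the square root of F. Biological coefficients of variation were 0.979 in embryos and 0.346 in lines. Alternatives used DESeq2 1.42.0 or other settings. Simulated data were fitted for XEN against ES lines and for female against male embryos only. The embryo simulation had a smaller spread than these embryos, so it does not vouch for the embryo fits. From each list the genes named were up to 3 called by smallest p (lines) or 2 given as values (embryos), and not all are printed. The 6 genes and all lists were chosen with earlier results of these data known.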

Additional observations from a re-analysis of the deposited data

Results flagged for a closer look

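Among 11 groups of 4 embryos examined, 2 held a value far from the other 3, and chance alone flags about 1 in 20 such groups. Creb3l2 in the null embryo M1 was 9.30 CPM, while the other 3 null embryos held 0 to 0.050 CPM, so its gap to the nearest was 0.995 of the range. Pyy in the wild-type female was 302 CPM, while the other 3 Nanog-bearing embryos held 0.0859 to 17.9 CPM, so its gap was 0.941 of the range. The 4 Nanog-bearing embryos hold 2 genotypes, so this gap includes the difference between wild-type and heterozygous embryos. These counts were also used to choose the genes, so both gaps are a description and not a test. What sets these embryos apart was not tested.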

How the results depend on the processing

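The Nanog-bearing contrast kept 4 of the 6 genes below 0 under every alternative scaling, filter and tool, 4 to 5 with 1 embryo left out, and 5 with both F1 and M2 left out, which was added once the data had been seen. Heterozygous against wild type had 4 below 0, and 2 to 4 with 1 embryo left out. XEN against ES called 5 genes throughout. XEN against TS called 5, or 3 with sex in the fit, and 3 to 5 with 1 line left out. ES against TS called 4, and 1 to 5 with 1 line left out. Over all genes, leaving out 1 line gave 3997 to 7646 calls for XEN against ES, 3808 to 5798 for XEN against TS and 2429 to 6233 for ES against TS, where the full fits gave 6630, 5385 and 6063. Female against male called 1 gene, 55 with DESeq2, 24 with no filter on low counts and 0 to 2 with 1 embryo left out, and the cause was not tested. Line numbers do not pair the lines: same-numbered lines correlated at -0.07 to 0.01 and 0 of 7 lines correlated best with its own number. With a replicate block on the line number, 5, 5 and 3 genes were called, Creb3l2 in ES against TS being lost (adjusted p = 0.0553). A change of a few fold in embryos was not detectable at this spread.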
